A study of Solanum lycopersicum with 6 samples.

Results

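The 4 gene symbols gad2, GABA-TP2, PRO1 and PRO2 were examined in mature green fruit of drought-stressed and control tomato. They were taken from the platform annotation of the array by exact symbol, which gave 5 probe sets for 5 gene identifiers out of 10101 probe sets tested. Only 909 of the tested probe sets carried a gene symbol, for 803 genes. The symbol PRO1 was carried by 2 gene identifiers, 544005 and 544018, and these were kept apart.

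Fruits came from the dwarf cultivar MicroTom, grown in a greenhouse at 25 °C in daytime and 20 °C in evenings, and were taken 30 to 40 days after flowering. The drought group held 3 arrays from plants that were given liquid fertilizer diluted 500-fold once a week, and the control group 3 arrays from plants under normal conditions given the same dilution. Water and nutrients were thus supplied together, and their effects cannot be told apart. No genotype other than the cultivar was named, and the labels do not tell whether each array of a group had its own plants. The p-values therefore measure the spread between these arrays, which may be technical.

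GABA is a non-protein amino acid that accumulates in green tomato fruit and is consumed as the fruit ripens. Glutamate decarboxylase makes it from glutamate, and GABA transaminases, of which tomato has the forms GABA-TP1, GABA-TP2 and GABA-TP3, remove its amino group on the way to succinate. Proline, a compatible solute that many plants accumulate when short of water, is also made from glutamate: a kinase and a reductase activity, joined in pyrroline-5-carboxylate synthetase, carry out the first steps.

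Names and identities did not match for all members. In the RefSeq gene table the gene of the gad2 probe set (544002) carries the synonyms 16DOX and GAME11, names of a dioxygenase of steroidal glycoalkaloid synthesis, whereas a different gene, GAD2 (100147722, synonym LeGAD2), bears the glutamate decarboxylase name. The order of genes on the SLM_r2.1 assembly places gad2 between the glycoalkaloid genes GAME2 and GAME6, with 1 annotated gene between it and each of them. The 4 genes with a LeGAD or SlGAD name in that table were not analysed here: none was named by a probe set, and 9192 of the tested probe sets carried no symbol. GABA-TP2 (543874) keeps its transaminase name but is also listed as GAME12, a transaminase of glycoalkaloid synthesis, and lies directly beside GAME4, a cytochrome P450 gene of the same pathway, which is the 1 gene between GABA-TP2 and GABA-TP3. The members on hand were therefore 2 genes with glycoalkaloid names, of which 1 is also a GABA transaminase, and the PRO genes.

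Of the PRO genes, PRO2 (544281) is listed as P5CS and tomPRO2, the pyrroline-5-carboxylate synthetase. PRO1 with identifier 544005 is not in the RefSeq table. The tables used here give no role or synonym for it, so its place in proline synthesis rests on the symbol alone. PRO1 with identifier 544018 has the synonym LePro1, the name of a pollen profilin, which binds actin and has no part in proline synthesis. PRO2 was thus the 1 member whose role in proline synthesis the tables annotate.

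The deposited values are probe set summaries and were taken as log2 from the values themselves. Array medians lay between 7.9048 and 7.9072 in drought and between 7.8974 and 7.9021 in control. Most probe sets hardly varied: 75.71% had a range over the 6 arrays under 0.001, and 27 hybridization spike-in probe sets, which match no tomato gene, had a median range of 9.09e-05 and a largest range of 0.000467. A range above that largest spike-in range was found in 32.6% of the tested probe sets and in 2 of the 5 members, gad2 and GABA-TP2. Control replicate 3 stood apart from the other controls. It correlated with the drought arrays at Pearson's r of 0.999 to 0.9992 and with control replicates 1 and 2 at 0.996 and 0.997. These correlations run over probe sets, and those are no independent replicates. Where leaving it out changed a call of a gene described here, both values are given.

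None of the 5 members passed the test of drought against control in limma with Benjamini-Hochberg adjustment over all probe sets at 0.05, where 0.762% of the probe sets passed. At an unadjusted p under 0.05 there were 4 of 5, against 25.0% of all probe sets. The drought and control arrays did not overlap in 4 of the 5 members, 3 higher and 1 lower in drought. The same held for 34.8% of all probe sets, with 20.5% higher and 14.3% lower.

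gad2 had the largest difference of the members. Its log2 values were 10.978, 10.994 and 10.991 in drought replicates 1 to 3, against 10.836, 10.828 and 10.926 in control replicates 1 to 3. All drought arrays lay above all control arrays, with a gap of 0.0517 between the nearest of them. The drought arrays spanned 0.0158 and the controls 0.0982, a span set by control replicate 3. The means were 10.988 ± 0.0084 in drought and 10.863 ± 0.0546 in control (SD, n = 3 each). The difference was +0.12 ± 0.031 (SE), with a 95% interval of 0.0423 to 0.206, nominally 1.09-fold on the scale of the deposited values (limma adjusted p = 0.112). In whole fruit, a change in the share of cells of a type and a change in RNA per cell cannot be told apart.

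gad2 missed the threshold with all 6 arrays as deposited and passed it without control replicate 3 (+0.16, limma adjusted p = 0.0158), a setting in which 5.41% of all probe sets passed. Without each of the other 5 arrays in turn the difference ran from 0.107 to 0.129 and missed the threshold. The exact two-sided permutation test over the 20 splits of the arrays gave p = 0.1, the smallest it can give. In size the gad2 difference stood at percentile 98.6 of all tested probe sets, and 1.59% of these differed by 0.1 or more in either direction.

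**Figure D1:**
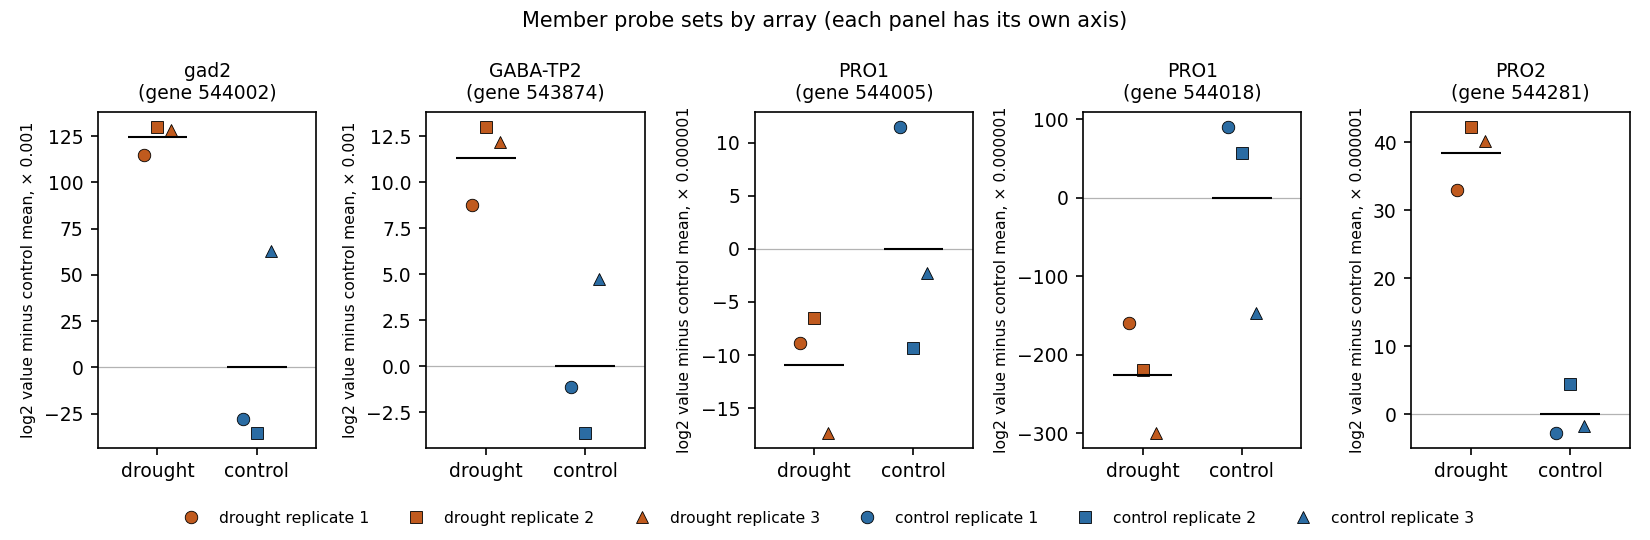
Log2 value minus the control mean for each member probe set, in drought (left) and control (right) arrays, with the replicate shown by the marker and the group mean by a bar. Axes differ between panels: they are in units of 0.001 for gad2 and GABA-TP2 and 0.000001 for the 3 PRO probe sets. Control replicate 3 lies between the other controls and the drought arrays in gad2 and GABA-TP2.

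GABA-TP2 showed the same arrangement of arrays at a smaller size. Its log2 values were 10.367, 10.371 and 10.370 in drought replicates 1 to 3, against 10.357, 10.354 and 10.363 in control replicates 1 to 3. The groups did not overlap, and control replicate 3 was again the highest control. The means were 10.369 ± 0.00226 in drought and 10.358 ± 0.00427 in control (SD, n = 3 each). The difference was +0.011 ± 0.0027 (SE), with a 95% interval of 0.00416 to 0.0185 (limma adjusted p = 0.106). Without control replicate 3 it was +0.014 (adjusted p = 0.0519), still short of the threshold. The exact permutation p was 0.1, the smallest possible.

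The size of the GABA-TP2 difference depended on scaling. The medians of the drought arrays averaged 0.00553 above those of the control arrays, which is about as large as what remained of GABA-TP2 once every array was centred on its own median, +0.0058 (limma adjusted p = 0.0490, where 93.1% of all probe sets passed). After quantile normalization the difference was +0.0054 (adjusted p = 0.173). For gad2 the same settings left +0.12 (adjusted p = 0.0201) and +0.11 (adjusted p = 0.163).

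**Figure D2:**
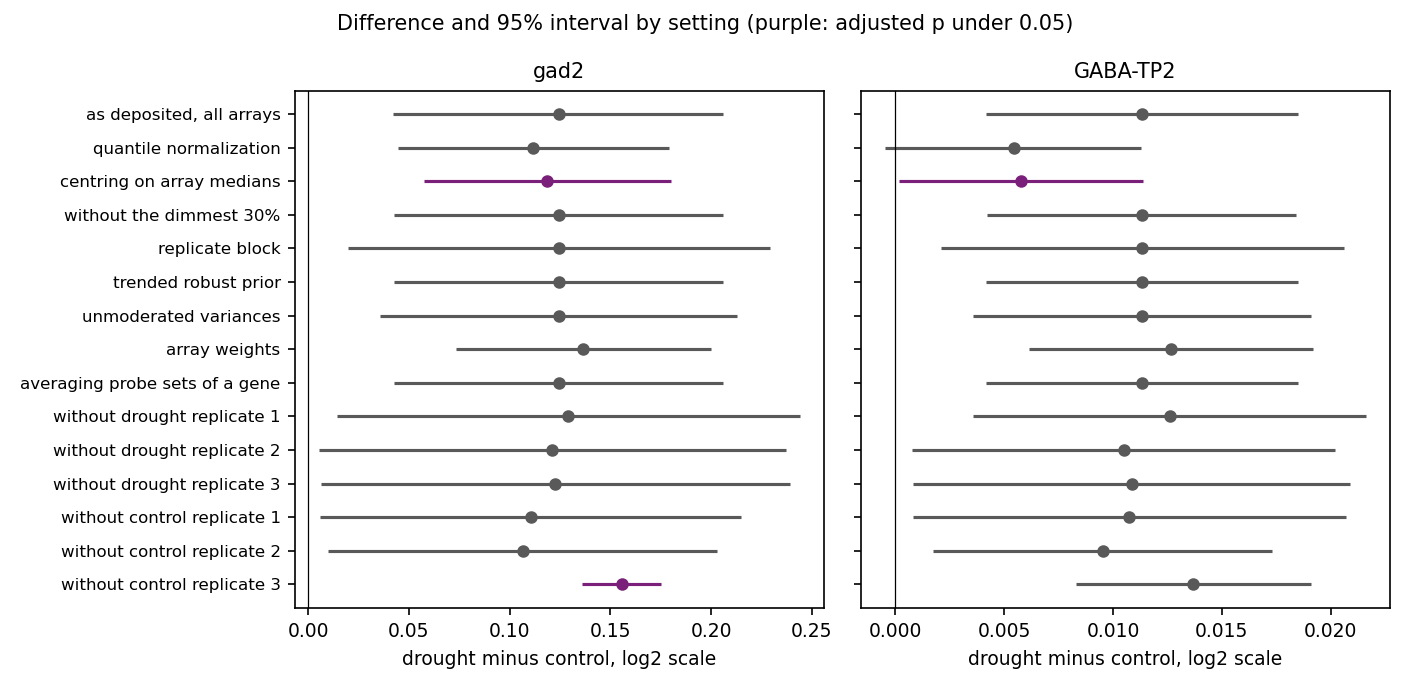
Drought minus control difference on the log2 scale with its 95% interval for gad2 (left) and GABA-TP2 (right), for the values as deposited and each alternative. Purple marks an adjusted p under 0.05, reached by gad2 after centring and without control replicate 3 and by GABA-TP2 after centring. All point estimates lie above 0.

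The other transaminases of the family were measured on the same arrays. GABA-TP1, the mitochondrial form in tomato, had values of 9.40967, 9.40963 and 9.40974 in drought, against 9.40979, 9.40967 and 9.40957 in control. The groups overlapped, and the difference of +5.6e-06 had a 95% interval of -0.000175 to 0.000186 (limma adjusted p = 0.979). Without control replicate 3 its difference was -4.8e-05. GABA-TP3, the plastid form, stood at 9.5346, 9.5326 and 9.5337 in drought, against 9.5314, 9.5331 and 9.5294 in control. These groups overlapped too, with a difference of +0.0023 and an interval of -0.000856 to 0.00541 (adjusted p = 0.313). The differences of GABA-TP1 and GABA-TP3 were below 0 after quantile normalization (-0.0019 and -0.0015) and after centring (-0.0055 and -0.0033), while that of GABA-TP2 was above 0 in both. Centring lowers every difference by the same 0.00553. The signs after centring therefore restate the sizes as deposited and are no further evidence of a contrast within the family.

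GABA-TP2 was also compared within arrays with GABA-TP1, GABA-TP3 and gad2, in relations chosen after their values were seen. The value of GABA-TP2 minus that of GABA-TP1 was higher in drought by 0.0113, with all 3 drought arrays above all controls (exact permutation p = 0.1, the smallest possible, adjusted p = 0.15 over 3 such relations). For GABA-TP2 minus GABA-TP3 the shift was 0.00905, with 2 of 3 drought arrays above all controls (exact permutation p = 0.2, adjusted 0.2). For gad2 minus GABA-TP2 it was 0.113, with 3 of 3 above (exact permutation p = 0.1, adjusted 0.15). None of the 3 relations could reach 0.05 in this design. GABA-TP1 ranged over only 0.000221, so GABA-TP2 minus GABA-TP1 restates the GABA-TP2 difference of +0.0113. Likewise, gad2 minus GABA-TP2 mostly restates the gad2 difference of +0.124. Neither is evidence apart from the differences given above.

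**Figure D3:**
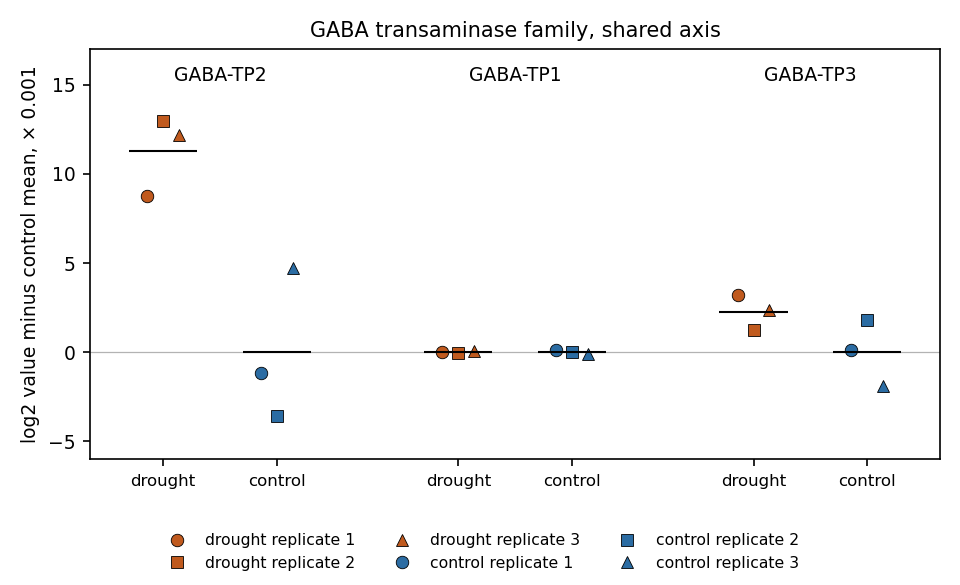
Log2 value minus the control mean, in units of 0.001, for GABA-TP2, GABA-TP1 and GABA-TP3 on a shared axis, with drought arrays left of control arrays, replicates by marker and group means as bars. The drought arrays of GABA-TP2 sit between 0.00875 and 0.013, above its controls, while both groups of GABA-TP1 lie near 0 on this axis.

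The 3 PRO probe sets differed by amounts within the variation of spike-in probe sets. PRO2, the pyrroline-5-carboxylate synthetase gene, had values of 9.067224, 9.067233 and 9.067231 in drought, against 9.067188, 9.067195 and 9.067189 in control. The groups did not overlap, and both were tight, with spans of 9e-06 in drought and 7e-06 in control. The difference was +3.9e-05 ± 4.0e-06 (SE), with a 95% interval of 2.77e-05 to 4.93e-05, and the limma adjusted p of 0.0506 was the smallest of the members. The whole range of PRO2 over the 6 arrays was 0.0964 times the largest spike-in range. Its direction turned after quantile normalization (-0.0015, adjusted p = 0.274) and after centring (-0.0055, adjusted p = 0.0201). After centring, 93.1% of all probe sets passed, and 9192 of the 10101 were called lower. Centring subtracts 0.00553 from every difference, so the centred value of PRO2 is nearly that shift alone. With array weights, PRO2 passed at +3.8e-05 (adjusted p = 0.0443), where 3.87% of all probe sets did.

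PRO1 (544005), for which no role is annotated, was dim, lying below the 25th percentile of all 6 arrays. It stood at 6.078508, 6.078511 and 6.078500 in drought, against 6.078529, 6.078508 and 6.078515 in control. The groups overlapped, and the difference of -1.1e-05 had a 95% interval of -2.95e-05 to 7.75e-06 (limma adjusted p = 0.405, exact permutation p = 0.3). Its range over the 6 arrays was 0.0616 times the largest spike-in range.

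PRO1 (544018), listed as LePro1, had values of 7.132472, 7.132413 and 7.132332 in drought, against 7.132722, 7.132688 and 7.132484 in control. All drought arrays were below all control arrays, by 1.2e-05 at the nearest, and control replicate 3 was the lowest control. The difference was -0.00023 ± 8.1e-05 (SE, limma adjusted p = 0.191). Without control replicate 3 the adjusted p was 0.0686. Its range over the arrays was 0.833 times the largest spike-in range. It kept a negative sign under all alternatives run.

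The wider set of GABA, glutamate, proline, arginine and polyamine genes, matched by symbol or synonym, held 21 genes with the 5 members, each represented by its brightest probe set. None passed over all probe sets in limma as deposited, and 7 of 21 had an unadjusted p under 0.05, or 33.3%, against 26.7% of all genes with a symbol. The groups did not overlap in 8 of the 21 genes, or 38.1%, against 35.2% of all genes with a symbol. The members made up 4 of the 7 and 4 of the 8. Of the 16 other genes, 18.8% had an unadjusted p under 0.05 and 25.0% did not overlap, both below the share of all genes with a symbol. Means were higher in drought for 10 genes and lower for 11. The median difference was -2.13e-08, beside -1.3e-06 over all 803 named genes. The median absolute difference was 0.0015 in the set and 0.000163 over the named genes. For 9 of the 21, the range over the arrays was no larger than the largest spike-in range. This was also so for 398 of the 803 named genes. A symbol can stand for more than 1 enzyme (PDH and AAT are examples), so membership rests on names. The 21 also include gad2 and PRO1 (544018), whose synonyms name a glycoalkaloid dioxygenase and a profilin.

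Among the 16 genes of the set that were not members, ProT2, yfe37, ODC and GS2 had the smallest p-values. ProT2, a name used for a proline transporter, stood at 7.17848, 7.17802 and 7.17824 in drought, against 7.17886, 7.17876 and 7.17871 in control. It differed by -0.00053 (limma adjusted p = 0.117). The ornithine decarboxylase gene ODC, of putrescine synthesis, had values of 7.7766, 7.7748 and 7.7752 in drought, against 7.7785, 7.7767 and 7.7779 in control. Its groups were separated by 0.000114, and the difference was -0.0021 (adjusted p = 0.172). GS2, a name used for plastid glutamine synthetase, overlapped between groups and differed by -0.0068 (adjusted p = 0.216).

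yfe37 entered the set through its synonym GAD3, a name that a different RefSeq gene, 100147723, bears as LeGAD3. It stood at 8.578, 8.629 and 8.587 in drought, against 8.485, 8.535 and 8.549 in control. The groups did not overlap, and after gad2 this was the largest difference with a positive sign in the set (+0.075 ± 0.024, SE, limma adjusted p = 0.160). gad2 and yfe37 both carry a gad name in the annotation, while neither is listed as LeGAD. No role is annotated for yfe37 in the tables used here, so whether it is a glutamate decarboxylase was not settled.

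**Figure D4:**
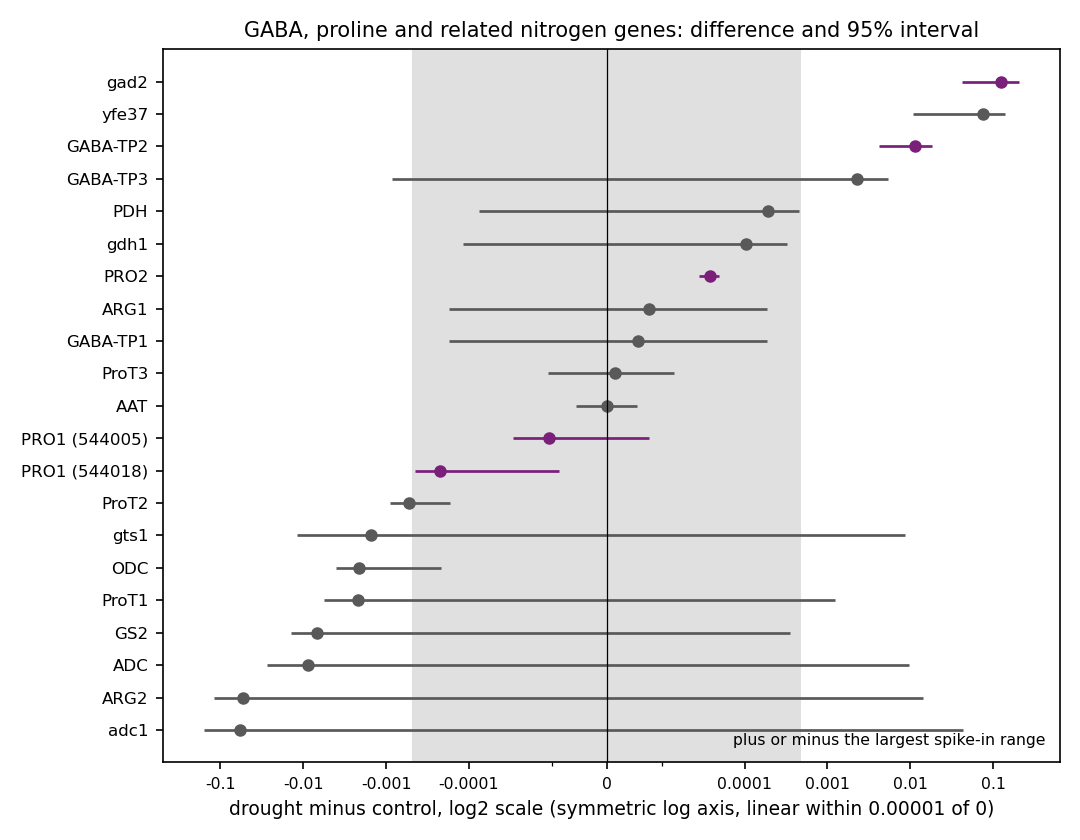
Drought minus control difference (log2, symmetric log axis) with its 95% interval for the 21 genes matched by name to GABA, proline and related nitrogen metabolism. Purple marks the members, and the grey band spans plus or minus the largest spike-in range of 0.000467. The points of gad2, yfe37, GABA-TP2 and GABA-TP3 lie right of the band, but the interval of GABA-TP3 (-0.000856 to 0.00541) spans the band. The 3 PRO probe sets lie inside the band.

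The arginase, glutamate dehydrogenase and arginine decarboxylase genes and adc1 overlapped between groups. The arginase gene ARG1 differed by +7.7e-06 (limma adjusted p = 0.970) and the glutamate dehydrogenase gene gdh1 by +0.00010 (adjusted p = 0.503). ARG2 had 3 probe sets with differences from -0.053 to -2.8e-05, the adjusted p being 0.281 or higher. The 4 probe sets of adc1 ran from -0.058 to -8.3e-05 and were all negative. In adc1, control replicate 3 lay just below all drought arrays, not between the groups as in gad2 and GABA-TP2. The brightest adc1 probe set stood at 8.903, 8.900 and 8.940 in drought, against 9.012, 9.007 and 8.897 in control replicates 1 to 3 (-0.058, limma adjusted p = 0.416). The arginine decarboxylase gene ADC was arranged in the same way, with 10.666, 10.669 and 10.673 in drought, against 10.683, 10.687 and 10.665 in control replicates 1 to 3 (-0.0088, adjusted p = 0.496). Without control replicate 3 these differences were -0.095 for adc1 and -0.016 for ADC, short of the threshold (adjusted p = 0.0672 and 0.0784).

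The other proline transporter genes and PDH had small differences. ProT1 and ProT3 overlapped between groups (-0.0022 and +1.4e-06, limma adjusted p = 0.369 and 0.902). PDH, for which the tables give no role, did not overlap (10.505926, 10.505786 and 10.506140 in drought, against 10.505786, 10.505751 and 10.505743 in control), but its nearest arrays were 2.6e-07 apart (+0.00019, adjusted p = 0.318).

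The named genes with values most like those of the members were sought among 437 probe sets with a symbol whose range exceeded the largest spike-in range. Likeness was Pearson's r over the 6 arrays, given as a description, since the arrays share the split into groups and the position of control replicate 3. LOC543898 came closest to gad2 (r = 0.991), followed by PPCK1 (0.989) and sig1 (0.988). PPCK1 (0.988), GSA-AT (0.988) and PMM (0.986) came closest to GABA-TP2. gad2 and GABA-TP2 correlated with each other at 0.984, rank 5 and rank 4 in each other's lists. Such values were common: r was at least 0.9 for 12.1% of the candidates for gad2 and 11.4% for GABA-TP2.

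Similar arrangement did not mean similar size. LOC543898 stood at 7.434, 7.572 and 7.533 in drought, against 6.175, 6.203 and 6.791 in control. It differed by +1.12 ± 0.20 (SE, limma adjusted p = 0.0696), and by +1.32 when control replicate 3 was left out (adjusted p = 0.0158). For PPCK1, a name used for phosphoenolpyruvate carboxylase kinase, the limma difference was +0.042 (adjusted p = 0.115), and +0.052 without control replicate 3 (adjusted p = 0.0413). For PMM, a name used for phosphomannomutase, it was +0.00088 (adjusted p = 0.0771), and +0.0010 without that array (adjusted p = 0.0482). sig1 also passed without it, at +0.0030 (adjusted p = 0.0215), against +0.0025 with it (adjusted p = 0.0703).

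**Figure D5:**
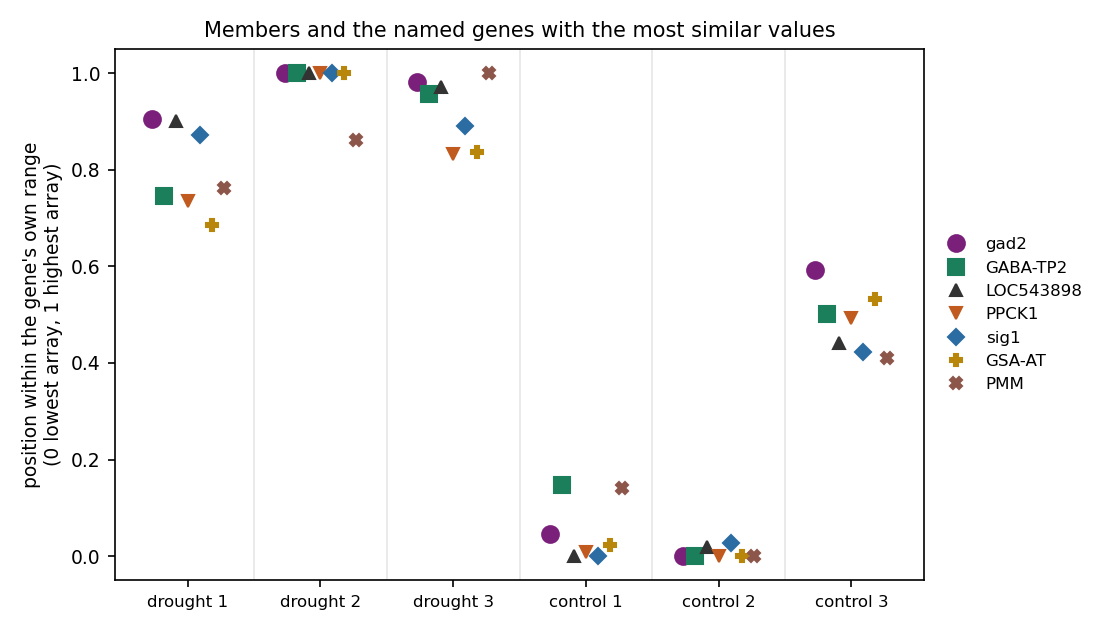
Values of gad2, GABA-TP2 and the 5 named genes most like them, each scaled from its lowest array (0) to its highest (1), for the drought arrays (left) and control arrays (right). In all 7 genes the drought arrays are highest, control replicates 1 and 2 lowest, and control replicate 3 in between.

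Markers of tissue and stage were read on the same arrays. Of 8 green tissue genes listed, 3 were found by symbol. CAB6A, a chlorophyll-binding protein gene, lay at percentiles 91.3 to 91.5 of the arrays, CAB4 at 79.9 to 80.8 and CAB5 at 35.9 to 40.2. Of the ripening genes, the polygalacturonase gene PG2 lay at percentiles 6.46 to 6.47, RIN at 6.03 to 14.8, NOR at 27.0 to 28.0 and E8 at 34.6 to 38.8. Psy1 lay at 85.2 to 85.4 by its brightest probe set, and at 13.8 to 13.9 and 35.9 to 36.1 by its others. Levels summed over a list (on the linear scale) were 2569 to 2619 in drought and 2586 to 2636 in control for the green tissue genes. For the 5 ripening genes they were 1404 to 1414 in drought and 1407 to 1450 in control, and for 3 epidermis genes 4481 to 4501 in drought and 4501 to 4516 in control. For the 4 water stress genes TAS14, LEA14, ER5 and NCED1 the sums were 5136 to 5174 in drought and 5267 to 5369 in control. None of 3 seed genes listed was found by symbol. The level of a sum is set mostly by its brightest genes, while larger differences lay in dimmer ones. The brightest water stress genes, LEA14 and NCED1, differed by only -0.0039 and -0.00060. The lower water stress sums in drought thus came mostly from the dimmer ER5 and TAS14. ER5, a late embryogenesis abundant protein gene, stood at 8.517, 8.439 and 8.705 in drought, against 8.987, 9.056 and 8.617 in control, with overlap (-0.33, limma adjusted p = 0.264). The dehydrin gene TAS14 overlapped too (-0.15, adjusted p = 0.379). RIN, which encodes a transcription factor needed for ripening, did not overlap. It stood at 5.934, 5.943 and 5.947 in drought, against 6.201, 6.039 and 6.005 in control (-0.14, adjusted p = 0.232). In size these 3 differences exceeded that of gad2. All 15 marker genes found had lower means in drought in the values as deposited. So did 432 of the 803 genes with a symbol and 5133 of the 10101 probe sets. None was called by limma, against 0.762% of all probe sets. Of the 803 genes with a symbol, 4 were called higher and 2 lower. An unadjusted p under 0.05 was found in 3 markers (20.0%), against 26.7% of genes with a symbol and 25.0% of all probe sets. Their part in the differences of gad2 and GABA-TP2 was not tested.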

How the data were processed

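The deposited values were probe set summaries, taken as log2 from the values themselves (5.46 to 15.83, below 16). The authors' background correction, normalization and summary method are not given in the sources used here. Per the labels' protocols, RNA was extracted with TRIzol, cleaned on RNeasy columns, and 100 ng was made into biotin-labelled cRNA. Of 10209 probe sets, 108 array control probe sets were left out and 10101 tested, 63 reporter probe sets among them. Gene symbols came from the platform annotation (909 probe sets with 1 symbol, 0 with several, 9192 with none). RefSeq (SLM_r2.1) served for synonyms and gene order, with 885 probe sets matched by gene identifier. Sequences were not used here.

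Drought was set against control with limma 3.58.1 in R 4.3.3 (lmFit and eBayes, two-sided, no filter, no block, threshold 0.05). Single values were also given an exact permutation test. On simulated arrays for drought against control with 10101 probe sets, each size of change was given to 50 probe sets. The test recovered 42 at a log2 change of 0.01, 49 at 0.1, 50 at 1 and 49 at 2, with 18 false calls. Noise was normal and independent between arrays, with the residual SD of each probe set. No simulated array stood apart as control replicate 3 did, and array medians were not shifted. These counts check that the test runs and do not give its power on the real arrays. The members and lists were chosen with earlier results of these data known. Named genes were the members, the called genes of the wider set or otherwise the 4 others with the smallest p, and for each member that varied more than spike-ins the 3 named probe sets with the highest r. GABA-TP1, GABA-TP3, the other genes of nitrogen metabolism described, the markers ER5, TAS14 and RIN and the 3 within-array relations were chosen after their values were seen. Arrays give no read depth, and their number limits the precision. Alternatives were quantile normalization, centring, leaving out the dimmest 30%, a replicate block, a trended robust prior, unmoderated variances, array weights, leaving out each array, and averaging probe sets of a gene.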

Additional observations from a re-analysis of the deposited data

How the results depend on the processing

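The 77 probe sets called in limma over the whole array became 0 after quantile normalization (2966 at an unadjusted p under 0.05), 9406 after centring, 7 with unmoderated variances and 391 with array weights, and ran from 0 to 546 as single arrays were left out (0 without control replicate 2 or drought replicate 3, 546 without control replicate 3). Of the 21 genes of the wider set, 17 were called after centring, 1 with array weights (PRO2) and 0 to 1 as single arrays were left out, the 1 being gad2 without control replicate 3. Of 69 values recomputed for the 5 members, 61 kept their direction and their side of the threshold. The other 8 were as follows. After centring, gad2 (0.119), GABA-TP2 (0.00579), PRO1 544005 (-0.00554) and PRO1 544018 (-0.00576) passed, and PRO2 turned to -0.00549. PRO2 was -0.00154 after quantile normalization and passed with array weights (3.79e-05). Leaving out single arrays moved gad2 between 0.107 and 0.156. PRO1 (544005) had no value without the dimmest 30%. GABA-TP1 turned negative after quantile normalization (-0.00189), after centring (-0.00553) and with array weights (-1.38e-06), and ran from -4.77e-05 (without control replicate 3) to 6.27e-05 as single arrays were left out, with -2.22e-05 without drought replicate 3. GABA-TP3 was -0.00147 after quantile normalization and -0.00326 after centring. Centring subtracts a shift of 0.00553 from probe sets that mostly vary by far less. The cause of the other changes was not tested.

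With the replicate number as a block, 0 probe sets were called in limma (1752 at an unadjusted p under 0.05), and the adjusted p was 0.251 for gad2, 0.245 for GABA-TP2 and 0.159 for PRO2. Deviations of arrays with the same number correlated at -0.092, -0.023 and -0.106 over the 10101 probe sets. Such correlations cannot tell whether equal numbers shared plants or handling, so pairing was not settled.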

Other observations

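Control replicate 3 took a like position in gad2 and GABA-TP2. On a scale from the mean of control replicates 1 and 2 (0) to the drought mean (1), it stood at 0.606 for gad2 and 0.518 for GABA-TP2. Over the 161 probe sets with an absolute difference of 0.1 or more, the median position was 0.653. Among the 909 probe sets with a symbol, the absolute difference of gad2 stood at percentile 96.2 and that of GABA-TP2 at 85.9, while PRO2 and PRO1 (544005) stood at 36.2 and 24.8. A gene with the symbol profilin, chosen after its values were seen, had a difference of -4.7e-07 (limma adjusted p = 0.935), beside -0.00023 for the profilin-named PRO1 (544018).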
